A study of Mus musculus with 24 samples.

Results

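The TNF superfamily of ligands and the TNF receptor superfamily were followed across 24 mouse livers in 8 groups. Members were taken by symbol alone: every gene starting with Tnfsf or Tnfrsf, plus Tnf, Lta, Ltb, Fas, Fasl, Cd27, Cd40, Cd40lg, Cd70, Ltbr, Ngfr, Eda, Edar, Eda2r and Relt. This gave 44 of the 18820 genes measured, 16 ligands and 28 receptors. No filter on low values was applied, so that all 44 were tested in every comparison. A probe set shared by Tnfsf12, Tnfsf13 and Tnfsfm13 names no single gene and was left out. Tnfsf12, the ligand of the receptor Tnfrsf12a, is therefore not analysed here.

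The ligands are trimeric proteins, mostly anchored in the membrane, and their receptors signal through adaptor proteins. Receptors with a death domain, such as Tnfrsf1a, Fas and Tnfrsf10b, can start apoptosis or necroptosis, while many others recruit TRAF proteins and activate NF-kB and JNK kinases. In the liver the family is known for hepatocyte death, regeneration and inflammation. NEMO, the product of Ikbkg, is the scaffold that IkB kinases need to activate NF-kB downstream of these receptors. The stress kinases JNK1 (gene Mapk8) and JNK2 (gene Mapk9) are activated by the same receptors.

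Each group held 3 livers from mice with different identifiers, with 1 Affymetrix array per liver. Untreated mice aged 52 weeks were labelled NEMO/JNKΔhepa triple knockouts (NEMO/JNK KO) or control. JNKΔhepa double knockouts (JNK KO) and their controls were either given diethylnitrosamine (DEN), which causes liver tumours, 40 days earlier, or had the bile duct tied off (bile duct ligation, BDL) 28 days earlier. Untreated mice aged 8 weeks were labelled NEMO/JNK1Δhepa double knockouts (NEMO/JNK1 KO) or NEMO single knockouts (NEMO KO), so that both 8-week groups carry a NEMO deletion by their labels. Per the labels' protocols, deletion used Cre under the albumin promoter, which acts in hepatocytes, on a C57BL/6 background. The same protocols give JNKΔhepa as floxed Jnk1 with Jnk2-/-, a loss of Jnk2 in the whole animal. They name NEMO f/f mice among the controls. No age is recorded for the DEN and BDL mice. By its title the series concerns hepatocyte JNK and cell fate in liver cancer development.

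The labels were checked against the data before the members were read. Mapk8 was lower in the knockouts by 0.87 on the log2 scale at 52 weeks (adjusted p = 0.00259) and by 1.02 after BDL (adjusted p = 0.0299), while the differences of -0.64 after DEN and -0.61 at 8 weeks were not called (adjusted p = 0.985 and 0.602). Mapk9 lay between 2.82 and 3.51 in all 18 livers outside the 8-week experiment, those labelled control included, and between 7.99 and 8.53 in the 6 livers aged 8 weeks. A difference in Jnk2 between the JNK KO livers and the livers labelled control was thus not seen in this probe set. Ikbkg was lower by 0.85 in NEMO/JNK KO livers at 52 weeks (adjusted p = 0.0043). At 8 weeks it ran from 6.76 to 7.02 in livers labelled NEMO/JNK1 KO and from 6.80 to 7.26 in livers labelled NEMO KO, values that overlap the 6.82 to 7.48 of control livers after DEN. The hepatocyte gene Alb averaged 13.21 in NEMO/JNK KO livers and 13.08 in control livers at 52 weeks. JNK KO replicate 3 after DEN had an Xist value of 10.38, against 2.16 to 3.87 in the other 23 livers. The Y-linked genes Kdm5d, Eif2s3y and Uty were at 3.66, 2.80 and 2.81 in this liver. In the other livers they ran from 5.86 to 6.81, from 6.61 to 7.96 and from 5.82 to 6.93. By these genes this liver alone read as female, so sex is mixed within the JNK KO group after DEN. Values that this liver moved are therefore also given without it.

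Values below are RMA log2 levels, on which a difference of 1 is a doubling. Brightness depends on the probes, so levels are compared between livers and not between genes. The 10 members Tnfsf4, Cd70, Cd40lg, Lta, Fasl, Tnfsf9, Tnfsf18, Tnfsf15, Tnfrsf17 and Edar never exceeded 4 on any array. Tnfrsf1a, Tnfrsf1b, Fas and Ltbr stayed above 7 on all of them. In GRCm38.p6, members described at length below lie at chr17:23675445-23677449 (Tnfrsf12a), chr14:69767472-69784411 (Tnfrsf10b), chr4:145212368-145246870 (Tnfrsf1b), chr8:10006229-10036000 (Tnfsf13b) and chrX:97333837-97377234 (Eda2r), per RefSeq. A gene was called when its limma adjusted p, over all 18820 genes, was under 0.05.

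Promoters of 35 of the 44 members were in the RefSeq table (assembly GRCm38.p6), 39 promoters in all, each spanning 250 bases before and 50 after a transcription start. They were searched on both strands for the AP-1 motif TGANTCA, which is its own reverse complement, and for the kB core motif GGNNTTTCC. AP-1 is the factor that JNK phosphorylates, and kB motifs bind NF-kB. Among all 32851 promoters of the table, 7.81% held the AP-1 motif and 5.82% the kB motif. Among the members, Fas, Tnfrsf8, Tnfrsf9, Tnfsf13b and Tnfsf14 held the AP-1 motif, and Edar, Ltb, Tnfrsf13b, Tnfrsf25 and Tnfrsf9 the kB motif, and no match of the one overlapped a match of the other. The 3 promoters below belong to members that were higher in NEMO/JNK KO livers at 52 weeks, with any match in capitals: Tnfrsf12a (chr17:23677400-23677699, minus strand) with none, Tnfsf13b (chr8:10006383-10006682, plus strand) with an AP-1 match starting 127 bases before the start, and Ltb (chr17:35194257-35194556, plus strand) with a kB match on the opposite strand, starting 87 bases before it.
Tnfrsf12a: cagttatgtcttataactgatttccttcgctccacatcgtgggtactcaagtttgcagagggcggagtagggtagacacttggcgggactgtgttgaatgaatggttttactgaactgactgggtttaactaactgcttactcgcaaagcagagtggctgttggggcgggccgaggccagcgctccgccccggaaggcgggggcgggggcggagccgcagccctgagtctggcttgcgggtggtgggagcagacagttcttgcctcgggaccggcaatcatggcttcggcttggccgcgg
Tnfsf13b: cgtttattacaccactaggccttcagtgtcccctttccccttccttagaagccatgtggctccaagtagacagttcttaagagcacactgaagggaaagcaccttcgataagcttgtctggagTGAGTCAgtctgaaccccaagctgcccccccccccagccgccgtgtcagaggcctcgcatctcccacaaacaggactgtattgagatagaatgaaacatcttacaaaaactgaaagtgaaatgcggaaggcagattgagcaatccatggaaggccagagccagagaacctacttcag
Ltb: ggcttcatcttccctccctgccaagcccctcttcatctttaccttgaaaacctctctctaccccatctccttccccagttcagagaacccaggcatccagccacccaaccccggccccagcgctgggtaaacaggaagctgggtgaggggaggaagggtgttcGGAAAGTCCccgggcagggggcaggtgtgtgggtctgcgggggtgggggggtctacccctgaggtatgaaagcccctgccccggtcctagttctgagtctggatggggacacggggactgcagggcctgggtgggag

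At 52 weeks, livers labelled NEMO/JNK KO differed from control livers in 10 of the 44 members, 8 higher and 2 lower. That is 22.7% of the members, beside 21.5% of all genes (13.6% higher and 7.9% lower), a share near the background. The members' median difference was 0.18, beside -0.05 over all genes. The receptors Tnfrsf12a, Tnfrsf1b, Tnfrsf10b, Tnfrsf21, Tnfrsf11a and Tnfrsf4 and the ligands Tnfsf13b and Ltb rose, and the receptor Ngfr and the ligand Eda fell. By role, 7 of 28 receptors and 3 of 16 ligands were called.

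Tnfrsf12a, the receptor Fn14 for the cytokine TWEAK, had values of 6.97, 7.08 and 6.82 in NEMO/JNK KO livers, against 5.57, 6.01 and 5.80 in control livers. The groups did not overlap, and the difference was 1.17 ± 0.14 (SE), a 2.24-fold rise (adjusted p = 0.000908). Tnfrsf10b, the mouse receptor for the death ligand TRAIL, had values of 6.32, 5.92 and 6.12 in NEMO/JNK KO livers, against 4.29, 4.98 and 4.66 in control livers. The gap between the groups exceeded the spread within either, and the rise of 1.47 ± 0.19, or 2.78-fold, was the largest among the members (adjusted p = 0.00105). Its ligand Tnfsf10 (TRAIL) was not called: it averaged 5.67 ± 0.12 in NEMO/JNK KO livers and 5.54 ± 0.36 in control livers (SD, n = 3 each; adjusted p = 0.618).

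Of the receptors for TNF, Tnfrsf1b (TNFR2), the receptor without a death domain, had values of 8.30, 8.27 and 8.12 in NEMO/JNK KO livers, against 7.17, 7.37 and 7.33 in control livers, a rise of 0.94 ± 0.12 (adjusted p = 0.001). Tnfrsf1a (TNFR1), the death domain receptor, averaged 8.97 ± 0.06 in NEMO/JNK KO livers and 8.78 ± 0.08 in control livers, a difference of 0.20 ± 0.11 that was not called (adjusted p = 0.244). The groups did not overlap for either receptor, and whether the one moved more than the other was not tested. Their shared ligand Tnf was at 4.99, 5.91 and 5.03 in NEMO/JNK KO livers, against 4.83, 4.59 and 4.44 in control livers. These also lay apart, but the difference of 0.69 ± 0.24 was not called (adjusted p = 0.0726).

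Tnfsf13b, the B cell survival factor BAFF, had values of 5.66, 5.61 and 5.88 in NEMO/JNK KO livers, against 4.85, 4.66 and 4.51 in control livers. It rose by 1.04 ± 0.14, or 2.06-fold (adjusted p = 0.00112). Another, dimmer probe set of Tnfsf13b averaged 4.16 in NEMO/JNK KO livers and 3.84 in control livers, a smaller gap that was not tested on its own. None of the receptors of Tnfsf13b was called: the differences were 0.18 for Tnfrsf13c, 0.38 for Tnfrsf13b and 0.18 for Tnfrsf17, the last being dim. Tnfsf13b is 1 of the 5 members with an AP-1 match in a promoter. Its other listed promoter, chr8:10006217-10006516, held the same site, at base 40 from that start. Whether the site has a part in the rise was not tested. Ltb, which forms lymphotoxin with Lta, had values of 6.75, 5.54 and 6.54 in NEMO/JNK KO livers, against 5.44, 5.35 and 4.87 in control livers. Knockout replicate 2 lay only just above the highest control, and the rise of 1.05 ± 0.30 was called at an adjusted p of 0.0359. Without NEMO/JNK KO replicate 1 or 3, or without any 1 control liver, the call was lost (adjusted p 0.0619 to 0.119). The lymphotoxin receptor Ltbr differed by 0.27 and was not called (adjusted p = 0.218).

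Among the other receptors, Tnfrsf21 (DR6), a death domain receptor, averaged 7.08 ± 0.12 in NEMO/JNK KO livers and 6.38 ± 0.24 in control livers (adjusted p = 0.0111). Tnfrsf11a, the receptor RANK, averaged 5.40 ± 0.28 in NEMO/JNK KO livers and 4.67 ± 0.13 in control livers (adjusted p = 0.0124). Its call was lost without NEMO/JNK KO replicate 3 (adjusted p = 0.0512). Its ligand Tnfsf11 (RANKL) differed by -0.12, and the soluble decoy Tnfrsf11b (osteoprotegerin) was at 5.35, 5.16 and 5.23 in NEMO/JNK KO livers, against 5.60, 6.11 and 5.44 in control livers (difference -0.47, adjusted p = 0.0939). Tnfrsf4 (OX40), a costimulatory receptor of T cells, was at 5.12, 4.34 and 4.63 in NEMO/JNK KO livers, against 3.92, 4.23 and 3.94 in control livers. Its rise of 0.67 ± 0.20 (adjusted p = 0.0427) was lost without NEMO/JNK KO replicate 1 or 3 or control replicate 1 or 3 (adjusted p 0.0929 to 0.115).

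Ngfr, the low-affinity neurotrophin receptor and in liver a gene of stellate cells, was at 5.47, 5.72 and 5.52 in NEMO/JNK KO livers, against 6.22, 6.59 and 6.41 in control livers. It fell by 0.84 ± 0.14 on the log2 scale (adjusted p = 0.00335). Of the 7 stellate and fibroblast markers, Pdgfrb was higher by 0.96 (adjusted p = 0.01) and Lrat lower by 2.19 (adjusted p = 0.00132), with a median of 0.71 over the list. Their summed linear level was 881.1 to 1632 in NEMO/JNK KO livers and 757.9 to 1355 in control livers, and their part in the Ngfr difference was not tested. Eda, the ligand ectodysplasin, was at 3.69, 3.90 and 3.68 in NEMO/JNK KO livers, against 4.32, 4.33 and 4.27 in control livers. It fell by 0.55 ± 0.12 (adjusted p = 0.0109), a call lost without NEMO/JNK KO replicate 3 (adjusted p = 0.0504). Of the receptors for Eda, Edar was dim and differed by -0.26 (adjusted p = 0.286), and Eda2r, the receptor of the EDA-A2 form, differed by 0.66 (adjusted p = 0.0592). Fas, the classical death receptor, was at 7.34, 7.14 and 7.51 in NEMO/JNK KO livers, against 7.52, 8.42 and 8.20 in control livers. The groups lay just apart and the difference of -0.72 ± 0.22 was not called (adjusted p = 0.0511). Its ligand Fasl was dim and averaged 3.07 in NEMO/JNK KO livers and 2.91 in control livers.

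Over all members, the 3 NEMO/JNK KO livers lay above the 3 control livers in 15 and below them in 5, beside 20.9% and 20.3% of all genes (41.2% in all). The balance of rises and falls depended on the scaling. With every array set to a common median over genes, the median difference over all genes was -0.37 and the members split into 5 higher and 12 lower, beside 8.34% and 47.5% of all genes. Quantile normalization gave 5 higher and 5 lower, beside 11.2% and 12.9% of all genes. Tnfrsf12a, Tnfrsf1b, Tnfrsf10b and Tnfsf13b were called higher, and Ngfr and Eda lower, under each of the 3 scalings. Ltb lost its call under quantile normalization (adjusted p = 0.0988), Tnfrsf21 under centring (adjusted p = 0.0513), and Tnfrsf11a and Tnfrsf4 under both. Fas gained one, at -1.04 when centred (adjusted p = 0.00409) and -0.76 after quantile normalization (adjusted p = 0.0197), as did Tnfrsf11b (-0.79 and -0.78) and Tnfrsf22, a mouse decoy receptor for TRAIL (-0.46 and -0.47). With 1 estimate of the spread from all 24 arrays, Tnfrsf12a, Ngfr, Tnfrsf21, Tnfrsf11a and Ltb lost their calls (adjusted p 0.0589 to 0.149).

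**Figure D1:**
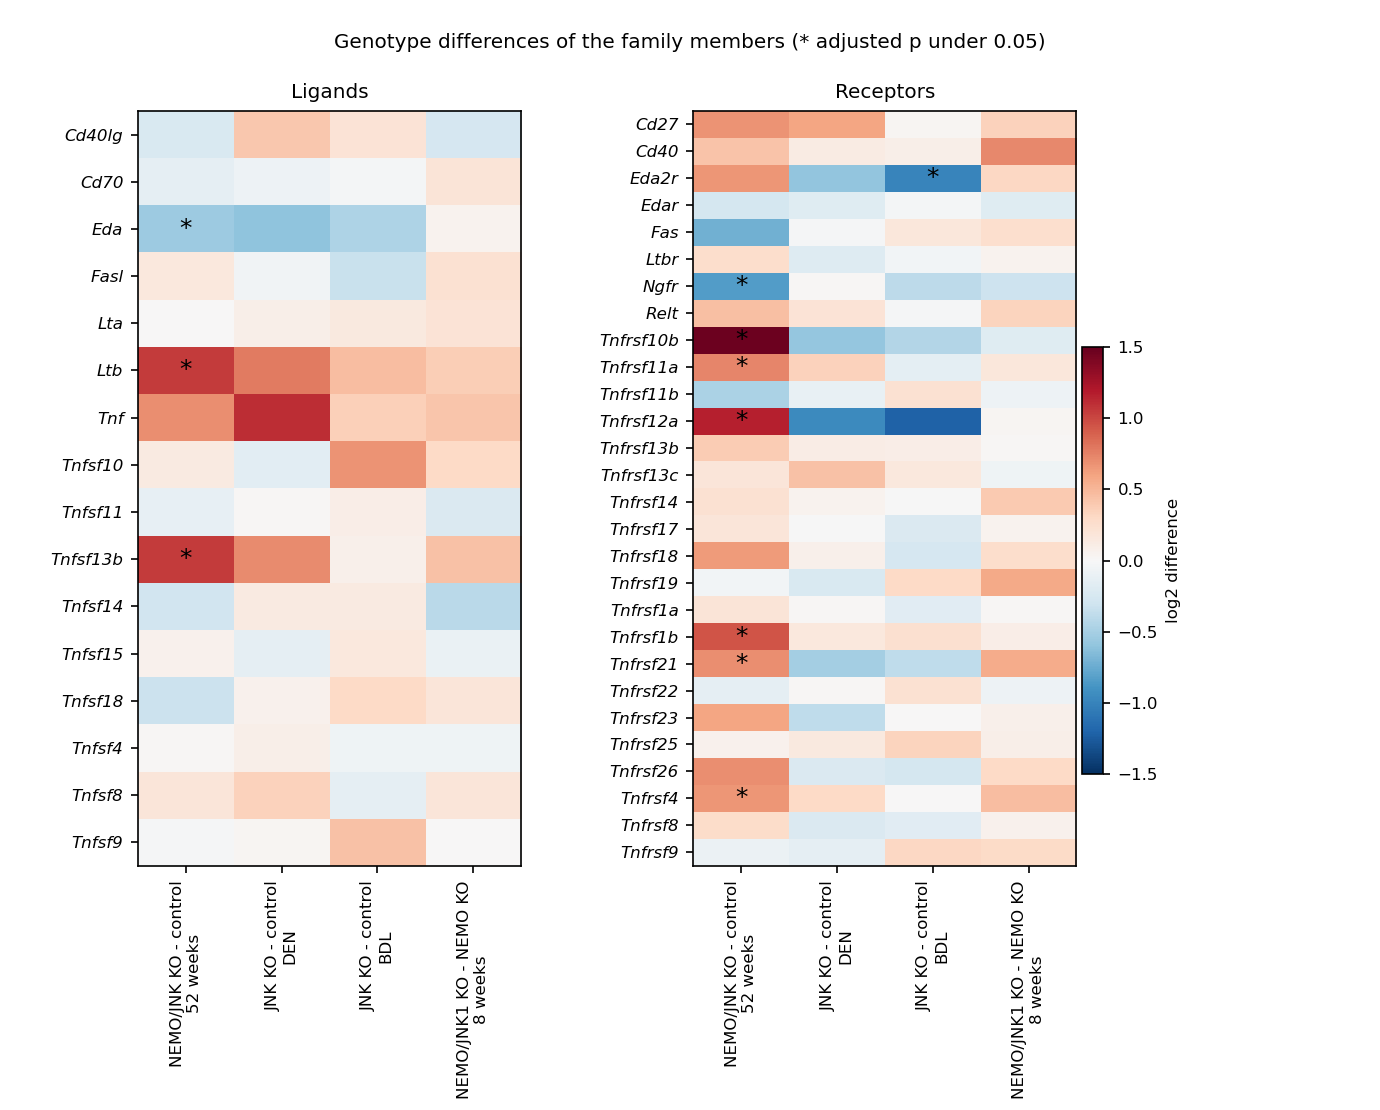
Log2 differences of the 16 ligands (left) and 28 receptors (right) in the 4 genotype comparisons, knockout minus its reference, with red for higher and blue for lower in the knockout on a scale from -1.5 to 1.5. Asterisks mark adjusted p under 0.05: 10 members at 52 weeks, 1 after BDL and 0 in the other comparisons.

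Markers of several cell types moved with these groups. All 7 biliary epithelium markers were higher in NEMO/JNK KO livers, and their summed linear level was 2462 to 3717, against 238.2 to 379.6 in control livers. Of the macrophage and Kupffer cell markers 6 of 8 were higher (3735 to 7499 in NEMO/JNK KO livers and 1749 to 2389 in control livers), of the T and NK cell markers 4 of 8 (265.8 to 418.8 in NEMO/JNK KO livers and 134.1 to 213.7 in control livers) and of the B and plasma cell markers 3 of 7 (1856 to 2090 in NEMO/JNK KO livers and 678.5 to 1109 in control livers). Of the dendritic cell markers 2 of 5 were higher. Hepatocyte markers summed to 36360 to 38470 in NEMO/JNK KO livers and 33090 to 39920 in control livers, with 0 of 7 higher and 1 lower. The part of these markers in the members' differences was not tested. In whole liver RNA, more cells of a type and more RNA per cell cannot be told apart.

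The signalling genes downstream of the family were read from a list of adaptors, kinases, ubiquitin ligases, NF-kB subunits and sheddases, of which 40 were measured. At 52 weeks 9 were higher and 1 lower. That is 25% of the list, beside 21.5% of all genes (13.6% higher and 7.9% lower), a share near the background. The list had a median difference of 0.12, beside -0.05 over all genes. Mlkl, the executor of necroptosis, averaged 7.14 ± 0.24 in NEMO/JNK KO livers and 5.95 ± 0.40 in control livers, a rise of 1.20 ± 0.21 (adjusted p = 0.00461). Map3k14, the kinase NIK of the noncanonical NF-kB pathway, rose by 0.93 (adjusted p = 0.00334), and Traf1, an adaptor of TNFR2, by 0.69 (adjusted p = 0.0143). Tnfaip8 rose by 0.95, Tnip1 by 0.63, Tab1 by 0.62, the sheddase Adam10 by 0.57, Tnfaip2 by 0.51 and Sharpin by 0.42. The gene that fell was Ikbkg, the targeted one. Casp8, the initiator caspase of death receptors, differed by -0.05 and the adaptors Fadd and Tradd by 0.03 and 0.01, and none of them was called.

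After DEN, no member was called between JNK KO and control livers, and neither was any gene of the 18820 (0% of all genes). At an unadjusted p under 0.05 there were 2 members and 781 genes. The members' median difference was 0.02, beside -0.02 over all genes. The groups lay apart for 2 members higher and 3 lower in JNK KO livers, beside 3.26% and 6.21% of all genes (9.47% in all). Limma called 0 members without any 1 liver in turn, JNK KO replicate 3 included.

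The values after DEN were spread widely within groups. Tnf was at 4.64, 7.27 and 4.68 in JNK KO livers, against 4.22, 4.64 and 4.43 in control livers. The groups lay just apart, but the difference of 1.11 ± 0.68 (adjusted p = 0.985) rested on replicate 2 and was 0.24 without it, and 1.53 without replicate 3. The same liver was highest of its group for Ltb (5.08, 7.98 and 6.54 in JNK KO livers, against 5.58, 6.15 and 5.52 in control livers) and for Tnfsf13b (4.73, 6.64 and 5.40 in JNK KO livers, against 4.83, 4.90 and 4.92 in control livers). Tnfrsf12a ran from 5.55 to 7.31 in JNK KO livers and from 6.12 to 7.98 in control livers, so that the groups overlapped (difference -0.96 ± 0.60, and -0.61 without JNK KO replicate 3). Tnfrsf10b ran from 4.52 to 5.88 in JNK KO livers and from 4.73 to 6.13 in control livers. In both groups the liver or livers high for Tnfrsf12a were also those high for Tnfrsf10b.

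Cd40lg, the ligand of CD40, was dim but higher in each JNK KO liver after DEN (2.95, 3.23 and 2.99) than in each control liver (2.62, 2.60 and 2.72), with a difference of 0.41 (adjusted p = 0.985), or 0.44 without JNK KO replicate 3. Eda differed by -0.60 ± 0.23, and by -0.82 without JNK KO replicate 3. Eda2r was at 4.68, 4.87 and 3.78 in JNK KO livers, against 5.03, 5.08 and 4.98 in control livers. The groups lay apart, but the difference of -0.59 was -0.26 without JNK KO replicate 3, which was the lowest of the group. With no gene called after DEN, the markers had none either. Their summed levels overlapped between JNK KO and control livers for biliary epithelium (337.7 to 1739 in JNK KO livers and 278 to 1014 in control livers, median difference 1.24) and for B and plasma cells (701.8 to 1694 in JNK KO livers and 662.5 to 984.8 in control livers, median difference 1.02).

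After BDL, 1 of 44 members was called between JNK KO and control livers, 2.27% beside 1.35% of all genes (0.797% higher and 0.558% lower). Eda2r was at 4.42, 4.07 and 4.08 in JNK KO livers, against 5.26, 4.97 and 5.32 in control livers. The groups lay well apart and the receptor fell by 0.99 ± 0.15 on the log2 scale (adjusted p = 0.0215). The call was lost without JNK KO replicate 1, 2 or 3 or control replicate 1 (adjusted p 0.0503 to 0.12). Of the control livers, 2 came from mice with identifier prefix TW128 and all other BDL livers from TW187, and with that prefix as a block the difference was -1.14 (adjusted p = 0.0734). Each of these fits kept the direction, and the only control liver of prefix TW187 had 5.32, above each JNK KO liver. Prefix and genotype are largely mixed here, and 1 liver cannot tell them apart.

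Tnfrsf12a was at 6.56, 6.74 and 6.45 in JNK KO livers after BDL, against 8.33, 7.37 and 7.69 in control livers. Every knockout liver lay below every control, yet the difference of -1.21 ± 0.23, the largest among the members, just missed the threshold (adjusted p = 0.0529). Without control replicate 2 it was -1.43 and was called (adjusted p = 0.0198), with Eda2r and with Ngfr at -0.85 (adjusted p = 0.0182). In that fit 2.08% of all genes were called, against 1.35% over all livers. Replicate 2 was the lowest control liver for each of these members, for Ngfr at 5.56 against 6.86 and 6.97. With the prefix as a block the Tnfrsf12a difference was -1.10 and was not called. The promoter of Tnfrsf12a printed above held neither motif, and whether AP-1 or NF-kB acts on the gene was not tested.

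Tnfsf10 (TRAIL) was at 5.39, 5.34 and 5.33 in JNK KO livers after BDL, against 4.19, 5.06 and 4.81 in control livers. It was higher in every knockout liver, by 0.67 ± 0.21, without passing the test (adjusted p = 0.185). Its receptor Tnfrsf10b was at 6.26, 5.85 and 5.56 in JNK KO livers, against 6.39, 6.22 and 6.38 in control livers, a difference of -0.44 (adjusted p = 0.309). Eda differed by -0.46 (adjusted p = 0.183) and Tnfsf9, the ligand of the T cell receptor 4-1BB, by 0.44 (adjusted p = 0.107). The groups lay apart for 4 members higher and 6 lower, beside 9.95% and 10.7% of all genes (20.7% in all). Of the pathway list 0 of 40 genes were called. Among the cell type markers, 1 stellate marker was higher and 1 lower of 7, 1 endothelial marker of 6 was lower and 1 platelet marker of 3 was higher. Summed levels lay apart for neutrophil markers (614.3 to 778.3 in JNK KO livers and 267.3 to 539.1 in control livers), biliary markers (907.1 to 1448 in JNK KO livers and 489.6 to 864.8 in control livers) and stellate markers (3331 to 3640 in JNK KO livers and 2262 to 3233 in control livers). Their part in the members' differences was not tested.

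**Figure D2:**
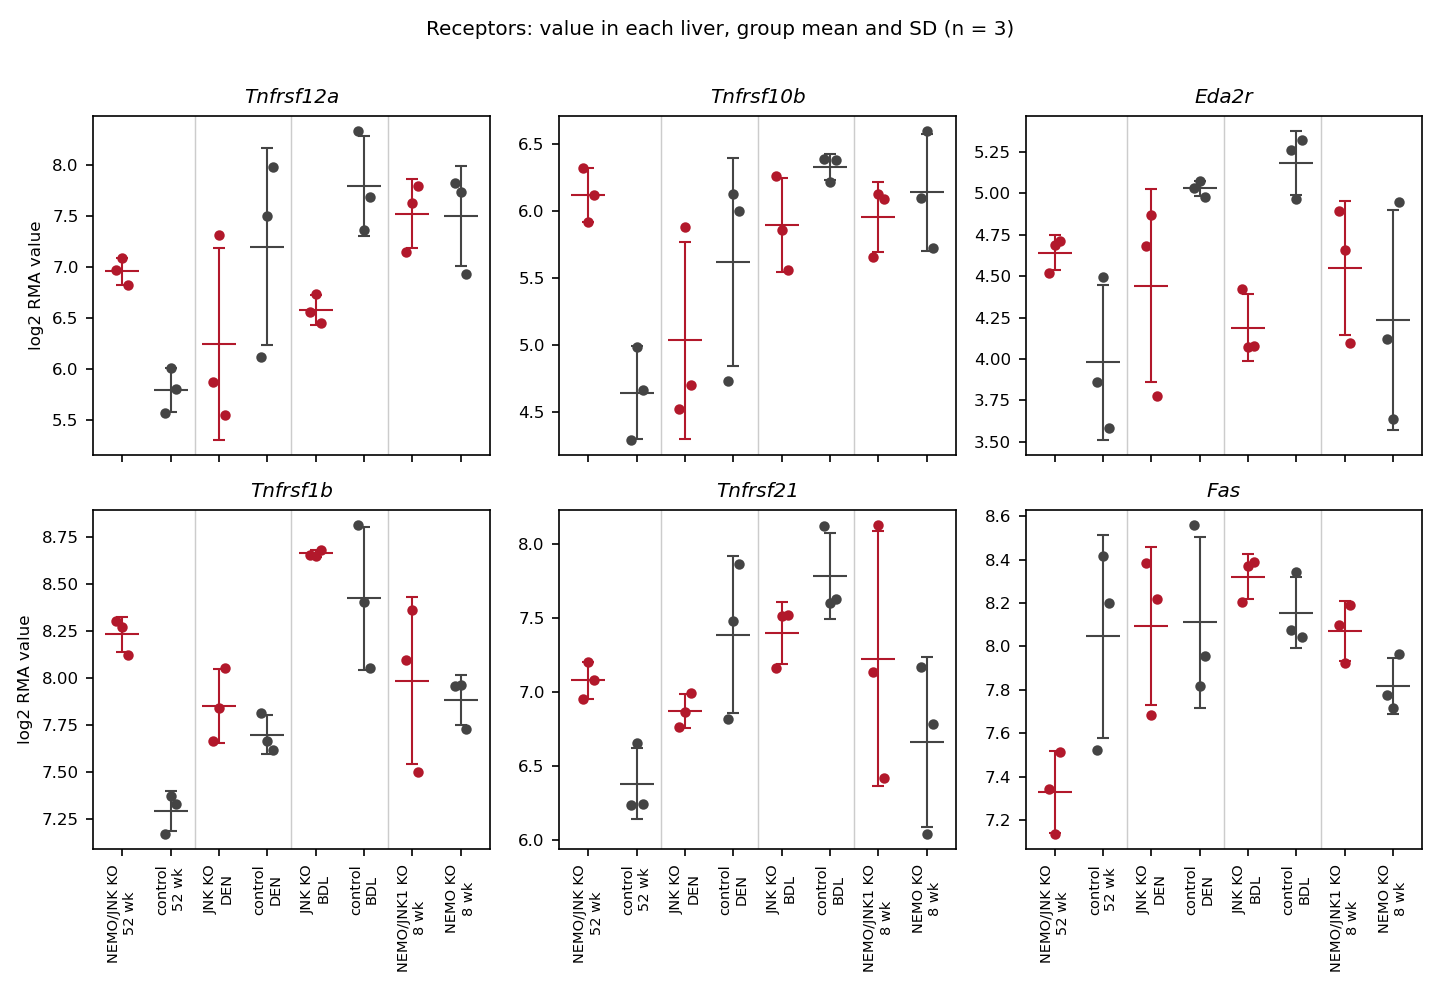
Log2 RMA values of 6 receptors in each of the 24 livers (points), with the mean and SD of each group of 3 (bars), knockout groups in red left of the groups they were compared with. Tnfrsf12a was higher in NEMO/JNK KO than in control livers at 52 weeks, and all JNK KO livers lay below all control livers after BDL.

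The effects at 52 weeks and after BDL were then set against each other in 1 model over their 12 livers, a comparison chosen after the values were seen. It contrasts NEMO/JNK KO with JNK KO and at the same time 52-week untreated with ligated livers, and these differences cannot be told apart. The effects differed in 9 members, 20.5% beside 16.5% of all genes. The difference of effects was positive in 8 (10.4% of all genes) and negative in 1 (6.05%). It was 2.38 ± 0.29 for Tnfrsf12a (adjusted p = 0.00031), 1.91 ± 0.28 for Tnfrsf10b (adjusted p = 0.000845) and 1.66 ± 0.28 for Eda2r (adjusted p = 0.00219). These 3 receptors passed the test in each of the 20 alternatives run. In the alternative with the identifier prefix as a block, the control level after BDL rests on replicate 3 alone, the only control liver of prefix TW187. That fit therefore cannot tell prefix from genotype. Tnfrsf21 (1.08), Tnfsf13b (0.96), Tnfrsf18 (0.89), Tnfrsf11a (0.88), Tnfrsf1b (0.70) and, in the negative direction, Fas (-0.88) were also called. All 6 of these calls were lost with the identifier prefix as a block, under which Tnfrsf1b was at 0.33. Over all alternatives Tnfrsf1b was lost in 16 of 20, Fas in 12 of 20, Tnfrsf11a in 10 of 20 and Tnfrsf18 in 8 of 19. Tnfrsf18, the costimulatory receptor GITR, had differed by 0.64 at 52 weeks and by -0.25 after BDL, neither of them called.

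**Figure D3:**
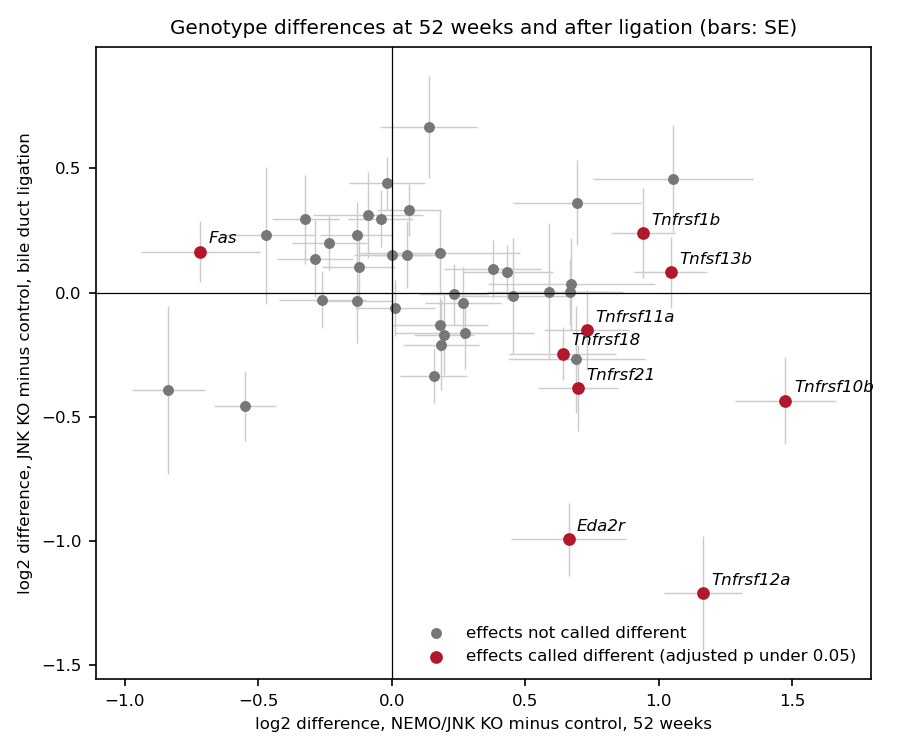
Each point is a member, with its log2 difference NEMO/JNK KO minus control at 52 weeks on the horizontal axis, JNK KO minus control after BDL on the vertical axis, and bars for the SE. Red marks the 9 members whose effects differed, and Tnfrsf12a, Tnfrsf10b and Eda2r lie farthest to the lower right.

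At 8 weeks, no member was called between NEMO/JNK1 KO and NEMO KO livers, and no gene of the 18820 either (0% of all genes). At an unadjusted p under 0.05 there were 2 members and 1442 genes. The members' median difference was 0.14, beside 0.00 over all genes, with 33 of 44 differences above 0. Cd40, the receptor for Cd40lg on B cells and macrophages, was at 4.80, 5.57 and 4.78 in NEMO/JNK1 KO livers, against 4.60, 4.17 and 4.21 in NEMO KO livers. No values overlapped, with a difference of 0.73 ± 0.25 (adjusted p = 0.604). Tnfsf13b was at 5.62, 5.61 and 5.20 in NEMO/JNK1 KO livers, against 5.03, 4.90 and 5.20 in NEMO KO livers (difference 0.44, adjusted p = 0.624). The dimmer probe set of Tnfsf13b averaged 3.84 in NEMO/JNK1 KO livers and 3.83 in NEMO KO livers. Tnfrsf12a averaged 7.52 ± 0.34 in NEMO/JNK1 KO livers and 7.50 ± 0.49 in NEMO KO livers. Without overlap were 3 members, all higher, beside 6.71% of all genes (14.4% in either direction). The identifier prefix was TW187 in NEMO/JNK1 KO mice and TW51 in NEMO KO mice, and prefix and genotype cannot be told apart.

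The injuries were compared within each genotype. In control livers 2 of 44 members were called between BDL and DEN, 4.55% beside 2.48% of all genes (1.74% higher and 0.739% lower). The groups lay apart for 5 members higher and 3 lower in BDL livers, beside 12.8% and 12.2% of all genes (24.9% in all). Tnfrsf19, the receptor TROY, was at 4.49, 4.51 and 4.24 in BDL livers, against 5.21, 5.17 and 5.41 in DEN livers. It fell by 0.85 ± 0.13 (adjusted p = 0.0249), with no overlap. Tnfsf10 was at 4.19, 5.06 and 4.81 in BDL livers, against 5.70, 6.33 and 5.87 in DEN livers, and fell by 1.28 ± 0.25 (adjusted p = 0.047). Each call was lost in at least 5 of the 6 fits that left out 1 liver (adjusted p 0.053 to 0.144 where lost). With the identifier prefix as a block both were lost, at -1.03 for Tnfrsf19 and -1.16 for Tnfsf10. That fit rests the BDL level on 1 liver, control replicate 3, and cannot tell prefix from injury. Of the stellate and fibroblast markers 6 of 7 were higher in BDL livers, with summed levels of 2262 to 3233, against 668.4 to 747.3 in DEN livers. The biliary markers were higher in 3 of 7, and their part in the members' differences was not tested. On the pathway list Adam10 rose by 0.59 (adjusted p = 0.0392) and Bid, the proapoptotic substrate of caspase-8, fell by 0.92 (adjusted p = 0.0266).

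In JNK KO livers 1 of 44 members was called between BDL and DEN, 2.27% beside 1.08% of all genes (0.77% higher and 0.313% lower). The groups lay apart for 4 members higher and 3 lower in BDL livers, beside 10.5% and 9.39% of all genes (19.9% in all). Tnfrsf1b was at 8.66, 8.65 and 8.68 in BDL livers, against 7.66, 7.84 and 8.05 in DEN livers. It rose by 0.81 ± 0.13 (adjusted p = 0.0417), and the adjusted p was 0.0542 to 0.211 without any 1 liver other than JNK KO replicate 2 after DEN (0.0542 without replicate 3). Without that replicate 2, 7.05% of all genes and 4 members were called, and the members were Tnfrsf1b (0.81, adjusted p = 0.0248), Tnfrsf10b (1.28, adjusted p = 0.0201), Tnfrsf12a (0.87, adjusted p = 0.0233) and Tnfrsf13c (-0.91, adjusted p = 0.0457). Over all 3 livers Tnfrsf10b and Tnfrsf12a were not called. Tnfrsf13c, the BAFF receptor of B cells, was at 5.03, 4.81 and 5.01 in BDL livers, against 5.54, 5.68 and 6.18 in DEN livers. It was lower in every BDL liver, by 0.86, without passing the test over all livers (adjusted p = 0.096), and by 0.67 without JNK KO replicate 3 after DEN (adjusted p = 0.135). The 7 B and plasma cell markers had a median difference of -1.17 here with 0 called, and summed levels of 844.6 to 967.6 in BDL livers, against 701.8 to 1694 in DEN livers. Their part in the Tnfrsf13c difference was not tested. Of the stellate and fibroblast markers 3 of 7 were higher after BDL here.

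The JNK effect after BDL minus that after DEN was called for 0 of the 44 members by limma, beside 0.0478% of all genes (0.0213% with a higher effect), and 1 member had an unadjusted p under 0.05. That was Tnfsf10, with a difference of effects of 0.83 ± 0.34 (adjusted p = 0.641), or 1.03 without JNK KO replicate 3 after DEN (adjusted p = 0.565).

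**Figure D4:**
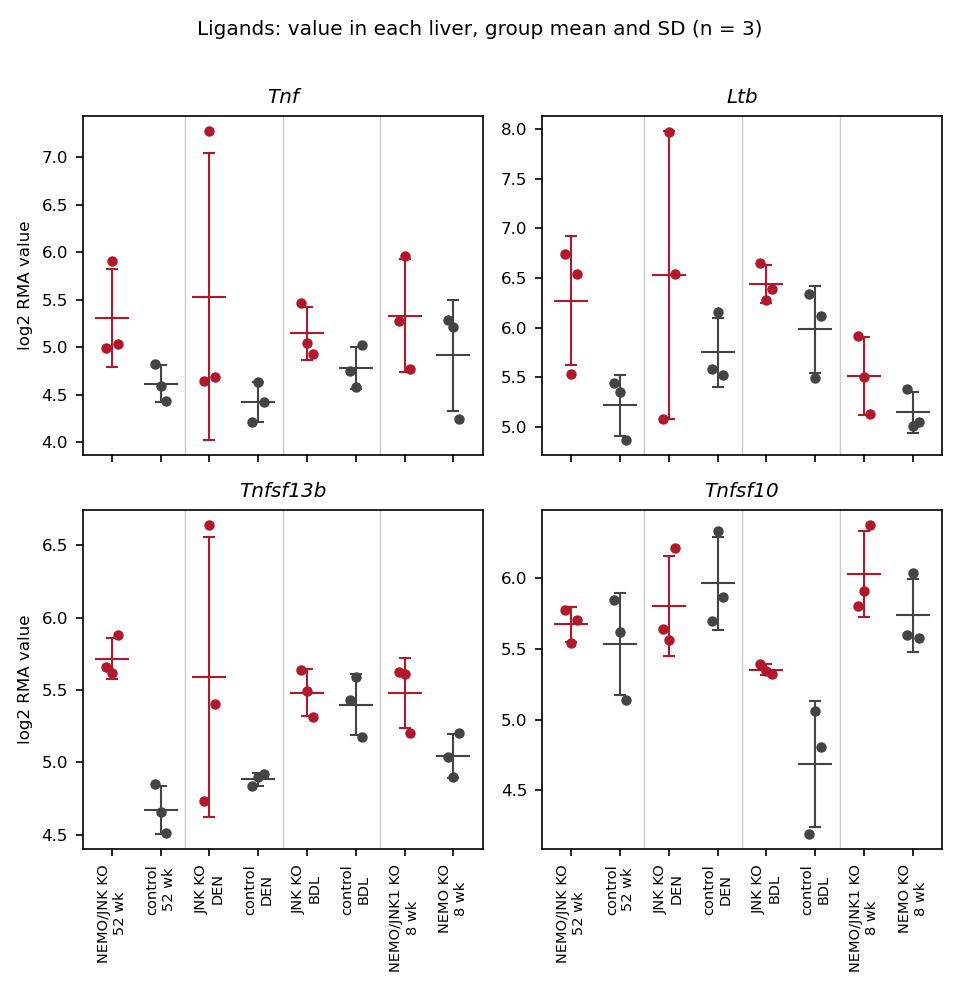
Log2 RMA values of 4 ligands in each of the 24 livers (points), with the mean and SD of each group of 3 (bars), knockout groups in red left of the groups they were compared with. JNK KO replicate 2 after DEN was the highest liver of its group for Tnf (7.27), Ltb (7.98) and Tnfsf13b (6.64), and Tnfsf10 was lowest in control livers after BDL.

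Over all 8 groups, 12 members differed in a moderated F test, 27.3% beside 22.1% of all genes. Without JNK KO replicate 3 after DEN 11 did, beside 19.8% of all genes. Age, treatment, genotype and identifier prefix are mixed in that test. Tnfrsf1b had the smallest adjusted p (0.000715), and was highest in JNK KO livers after BDL (8.66 ± 0.02), overlapped there by control livers (8.43 ± 0.38), and lowest in control livers at 52 weeks (7.29 ± 0.11). Tnfrsf1a (adjusted p = 0.00552) and Tnfsf10 (adjusted p = 0.00643) followed, then Tnfrsf10b, Tnfrsf12a, Eda, Cd40lg, Tnfrsf13c, Ltbr, Fas, Eda2r and Tnfsf9. Tnfsf9 lost its call in 20 of 29 alternatives, Eda2r in 17 of 30 and Fas in 14 of 30. Without control replicate 1 after BDL, 6 members were called, beside 17% of all genes. Tnfrsf12a, Tnfrsf10b and Eda2r had their lowest group mean in control livers at 52 weeks and their highest in control livers after BDL, with ranges of 2.00, 1.69 and 1.21 between those means. The same groups were lowest and highest for Tnfrsf21 (range 1.40), Tnfrsf11a (0.91), Tnfrsf1a (0.81), Relt (0.68), Ltbr (0.50) and Tnfrsf17 (0.22). In 14 members the group means spanned less than 0.5.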

How the data were processed

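RNA from 24 livers was hybridised to 24 Affymetrix arrays. The deposited values are log2 levels of each probe set. The submitters' processing notes name RMA, which corrects background, normalises quantiles between arrays and summarises probes. Which program and chip definition the authors used, and on which arrays together, is not stated there. Replicates carried different mouse identifiers.

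Of 35556 probe sets, 21218 had 1 gene symbol, 1881 several and 12457 none. They stood for 18820 genes, each by its probe set with the highest mean over 24 arrays. Linear models with moderated variances (limma 3.58.1, R 4.3.3) were fitted to all 18820 genes, for pairs of groups on their own 6 arrays, for differences of effects on 12 and for the F test on 24. Tests were two-sided and adjusted by Benjamini-Hochberg. An exact permutation test of 3 against 3 livers cannot go below 0.1 and was not used. The number of arrays limits the precision.

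Members called were named with their statistics. Of those not called, 5 a comparison were foreseen, by smallest p or as partners of called members, and at 52 weeks further partners were added. The members, gene lists and marker lists were chosen with earlier results of these data known. The comparison of 52-week and BDL effects was added after the values were seen. Same-numbered replicates deviated together with r between -0.193 and 0.359, and in no comparison did all 3 pairs exceed 0.1, so they were not treated as pairs. The highest r were those of JNK KO and control livers after DEN, at 0.359, 0.301 and 0.045 for replicates 1, 2 and 3. With the replicate number as a block, 0 genes were called there. Procedures were tested on simulated data in which 200 genes were shifted. A shift of 1 on the log2 scale was called in 43% to 76% of genes, and a shift of 2 in 87% to 98%. For a shift of 1 it was 55% after DEN, 49% at 8 weeks and 43% for the BDL against DEN effects. False calls numbered 5 to 14 a comparison. Alternatives were quantile normalization, centring, a filter on dim genes, mean probe sets, array weights, all arrays, blocks, a 2-fold threshold and leaving out each replicate.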

Additional observations from a re-analysis of the deposited data

Results flagged for a closer look

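The genotype effect at 52 weeks (NEMO/JNK KO minus control) and that after BDL (JNK KO minus control) differed by the test of the difference in 9 members, 20.5% beside 16.5% of all genes. The difference of effects was 2.38 for Tnfrsf12a, 1.91 for Tnfrsf10b, 1.66 for Eda2r, 1.08 for Tnfrsf21, 0.96 for Tnfsf13b, 0.89 for Tnfrsf18, 0.88 for Tnfrsf11a, 0.70 for Tnfrsf1b and -0.88 for Fas. With the identifier prefix as a block the call remained for Tnfrsf12a, Tnfrsf10b and Eda2r and was lost for the other 6, with Tnfrsf1b at 0.33. That fit rests the control level after BDL on replicate 3 alone, so it cannot tell prefix from genotype. Genotype, age and treatment differ together here, and their parts cannot be told apart. In 3 further cases every knockout liver lay above every liver it was compared with in 1 experiment and below in another, and the difference was not tested. Such opposite non-overlap among the 4 genotype comparisons held for 6 of 44 members (13.6%) and for 8.22% of all genes. Eda2r was 0.66 higher in NEMO/JNK KO livers at 52 weeks and 0.59 lower in JNK KO livers after DEN, a gap of 1.25, but only 0.26 lower after DEN without JNK KO replicate 3. Fasl was dim, at 2.62 to 3.27 over all arrays. It was higher in NEMO/JNK1 KO livers at 8 weeks (0.22) and lower in JNK KO livers after BDL (-0.34), with a gap of 0.56. Tnfrsf26 was higher in NEMO/JNK1 KO livers at 8 weeks (0.30) and lower in JNK KO livers after DEN (-0.22), with a gap of 0.52. At 8 weeks identifier prefix and genotype cannot be told apart.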

How the results depend on the processing

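No called member changed direction under any alternative run. Shares of all genes called stand in brackets, except for the 2-fold threshold and adjusted p under 0.01, where none was computed. Counts with the prefix block are left out, since there the control level after BDL rests on replicate 3 alone. At 52 weeks, 10 members (21.5%) became 17 with arrays centred on their median (55.9%) and 4 with a 2-fold threshold. Without 1 liver they were 6 to 12 (14.3% to 19.5%), with 6 without NEMO/JNK KO replicate 3 (14.3%). After BDL, 1 member (1.35%) became 2 with centring (1.38%) or array weights (2.08%). It became 0 with all 24 arrays (0.616%) or the 2-fold threshold, and 0 to 3 without 1 liver (0.308% to 2.97%). Between BDL and DEN in control livers, 2 (2.48%) became 1 with the replicate block (0.579%) or the 2-fold threshold. Without 1 liver they were 0 to 3 (0.298% to 4.56%). In JNK KO livers, 1 (1.08%) became 0 with centring (1.26%), the replicate block (0.00531%) or the 2-fold threshold. It became 6 with array weights (13.2%) and 0 to 4 without 1 liver (0.0159% to 7.05%). For 52-week minus BDL effects, 9 (16.5%) became 15 with centring (32.4%), 3 with all 24 arrays (8.48%) and 4 with the 2-fold threshold. Without 1 liver they were 5 to 9 (11% to 19.2%). They were 5 without replicate 3 of NEMO/JNK KO at 52 weeks (12.6%) or of JNK KO after BDL (11.1%). For the 8 groups, 12 (22.1%) became 21 with array weights (44.7%) and 3 at an adjusted p under 0.01. Without 1 liver they were 6 to 17 (16% to 26.8%), with 6 without control replicate 1 after BDL (17%). After DEN, at 8 weeks and for the BDL against DEN effects, each alternative gave 0 (at most 0.0106%, 0.303% and 0.361%). With the replicate block the other counts were 10 at 52 weeks (19.9%), 1 after BDL (0.755%), 9 for the added comparison (16%) and 9 for the 8 groups (21.4%). The cause of these changes was not tested. No detection calls came with the values, so that dim members have no limit of detection, and 3 livers a group limit every test.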
